A study of Mus musculus with 6 samples.

Results

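The circadian clock of the liver was described from 10 genes, *Arntl*, *Clock*, *Npas2*, *Cry1*, *Per1*, *Per2*, *Per3*, *Nr1d1*, *Nr1d2* and *Dbp*, in WT and β-cateninΔ(ex3)/+ mice. They were taken by gene name from a table of 31950 genes, and each name matched 1 line. RNA from 6 livers was sequenced, 3 per genotype and 1 library per liver, all from C57BL/6 mice that the labels place at 8 weeks of age. The β-cateninΔ(ex3)/+ livers carry 1 β-catenin allele without exon 3. The study's methods make this genotype by giving tamoxifen to mice with an inducible Cre under the albumin promoter, so that the deletion lies in hepatocytes. Whether the WT mice carried Cre or received tamoxifen, and the time of day at which either group was killed, are not given in the sources used here. Expression was deposited as FPKM, the fragments of a gene scaled to its transcript length and to the size of the library.

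In the clock, BMAL1, the product of *Arntl*, pairs with CLOCK or its relative NPAS2 and activates genes through E-box sequences, among them the *Per*, *Cry* and *Nr1d* genes and *Dbp*. PER and CRY proteins repress this activation. REV-ERBα and REV-ERBβ, the products of *Nr1d1* and *Nr1d2*, repress *Arntl*, *Npas2*, *Clock*, *Cry1* and *Nfil3* through ROR elements, while DBP activates genes through D-boxes. In mouse liver the transcripts of *Arntl* and *Npas2* are known to peak at a time of day when those of *Dbp* and *Nr1d1* are low, and the reverse.

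The livers of the groups also differed in ways that their labels do not give, and this touches every comparison of the clock genes. Depth was estimated from steps between low FPKM values as 24400000 to 24700000 fragments in the WT and 17000000 to 19600000 in the β-cateninΔ(ex3)/+ libraries. The direction of this difference rests on a correction described with the processing, before which the fitted β-cateninΔ(ex3)/+ depths were above those of WT. *Xist*, transcribed from the inactive X chromosome, was at 20.3 to 22.2 FPKM in WT and at most 0.0146 FPKM in β-cateninΔ(ex3)/+ livers, whereas the Y-linked *Eif2s3y* was at most 0.0169 FPKM in WT and 9.20 to 9.94 FPKM in β-cateninΔ(ex3)/+ livers. The summed FPKM of 5 genes known for high expression in the fetal and newborn liver, *Afp*, *H19*, *Igf2*, *Gpc3* and *Dlk1*, was 3813 to 3880 in WT and 3.98 to 4.39 in β-cateninΔ(ex3)/+ livers, so by these markers the WT libraries went against the adult age on their label. All 3 WT libraries shared this, so no clock result could be given without them. Genotype, sex-linked expression and young-liver expression cannot be told apart in these 6 livers, and the part of both kinds of expression in the clock values was not tested. Hepatocyte markers were present in every library, with 8 of 8 above 0, summing to 90820 to 93660 FPKM in WT and 44502 to 44862 FPKM in β-cateninΔ(ex3)/+ livers. By a limma adjusted p under 0.05, 6 of the 8 fell, beside 19.6% of all genes tested. The other 2, *Serpina1c* and *Hnf4a*, rose, beside 37.4%.

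RefSeq promoters of GRCm38.p6, from 250 bases before to 50 after a start site, were at hand for 9 of the 10 genes, in 13 windows. None was at hand for *Per2*, so its promoter was not searched. They were searched on both strands for the E-box CACGTG, the noncanonical E-box CACGTT, the D-box TTATGTAA or TTACGTAA, the ROR element TAGGTCA or TGGGTCA, and the TCF/LEF motif ATCAAAG or TTCAAAG, and no match overlapped another. The matches are shown to place the named elements of the loop in its own genes, and no relation to the changes was tested. *Per3*, with paired D-boxes, and *Per1*, with an E-box, were lower in β-cateninΔ(ex3)/+ livers, and *Arntl*, with a ROR element, was higher. *Cry1*, with both kinds of E-box, and *Nr1d1*, with the noncanonical one, did not pass the test. *Dbp*, *Nr1d2*, *Npas2* and *Clock* held no match in their windows. Capitals mark the motif, and each sequence runs 5′ to 3′ on the strand of its gene.
Per3, chr4:151044666-151044915, minus strand, D-boxes: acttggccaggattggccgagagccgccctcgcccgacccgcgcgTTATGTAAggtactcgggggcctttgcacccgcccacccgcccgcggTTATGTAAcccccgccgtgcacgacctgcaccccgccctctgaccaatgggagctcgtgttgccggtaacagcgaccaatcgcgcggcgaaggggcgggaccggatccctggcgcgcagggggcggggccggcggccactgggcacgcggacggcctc
Arntl, chr7:113207530-113207558, plus strand, ROR element: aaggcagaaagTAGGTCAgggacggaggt
Per1, chr11:69098772-69098799, plus strand, E-box: gcacccaagtcCACGTGcagggatgtgt
Cry1, chr10:85185098-85185125, minus strand, E-box: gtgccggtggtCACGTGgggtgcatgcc
Cry1, chr10:85185117-85185144, minus strand, noncanonical E-box: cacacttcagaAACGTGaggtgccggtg
Nr1d1, chr11:98775389-98775416, minus strand, noncanonical E-box: gcacagatctcAACGTGccggctgctgg
The *Per3* D-boxes lie at -205 and -158 bases from the start site, upstream of the gene, and the *Arntl* ROR element lies 30 bases after the later of its start sites, in the first exon and the 5′ UTR of GENCODE M21. The E-boxes of *Per1* and *Cry1* lie at -166 and -60, and the noncanonical ones of *Cry1* and *Nr1d1*, read here from the other strand as AACGTG, at -79 and -28. Of 32851 promoters of the same length, 1.06% hold a D-box, 6.45% the ROR element, 7.15% the E-box, 4.68% the noncanonical E-box and 8.65% the TCF/LEF motif. The TCF/LEF letters were in 0 of the 13 windows. A match is a description of letters and no evidence that a factor binds there.

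Of the arm of the loop that is driven by E-boxes and D-boxes, 4 of 6 genes fell in β-cateninΔ(ex3)/+ livers. Of the arm of activators and genes that answer to ROR elements, 2 of 4 rose. *Cry1*, a repressor gene that answers to E-boxes too, was counted in this second arm. Of the 6 genes *Per1*, *Per2*, *Per3*, *Nr1d1*, *Nr1d2* and *Dbp*, all 6 had every β-cateninΔ(ex3)/+ liver below every WT liver, where 23.0% of all genes tested did so. Among the other 4, *Arntl* and *Npas2* had every β-cateninΔ(ex3)/+ liver above every WT liver, as 43.0% of all genes did, so 8 of the 10 were without overlap in either direction, beside 66.0% of all genes. In the limma fit over 13243 genes on the log2(FPKM + 1) scale, *Per1*, *Dbp*, *Per3* and *Nr1d2* were lower at a Benjamini-Hochberg adjusted p under 0.05, and the last 3 of them fell at least 2-fold as well. Of all genes tested, 4.52% were lower by both thresholds and 19.6% by the adjusted p at any fold. In both directions 6 of the 10 clock genes passed the adjusted p, near the 57.0% of all genes that did, and 3 passed both thresholds, against 12.7%. Of the 4 genes *Arntl*, *Clock*, *Npas2* and *Cry1*, 2 rose by the adjusted p, *Arntl* and *Npas2*, and 0 reached 2-fold on this scale, against 37.4% and 8.17% of all genes. The median log2 fold change was -1.04 over the first 6 genes and 0.35 over the other 4, beside 0.14 over all genes tested.

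**Figure D1:**
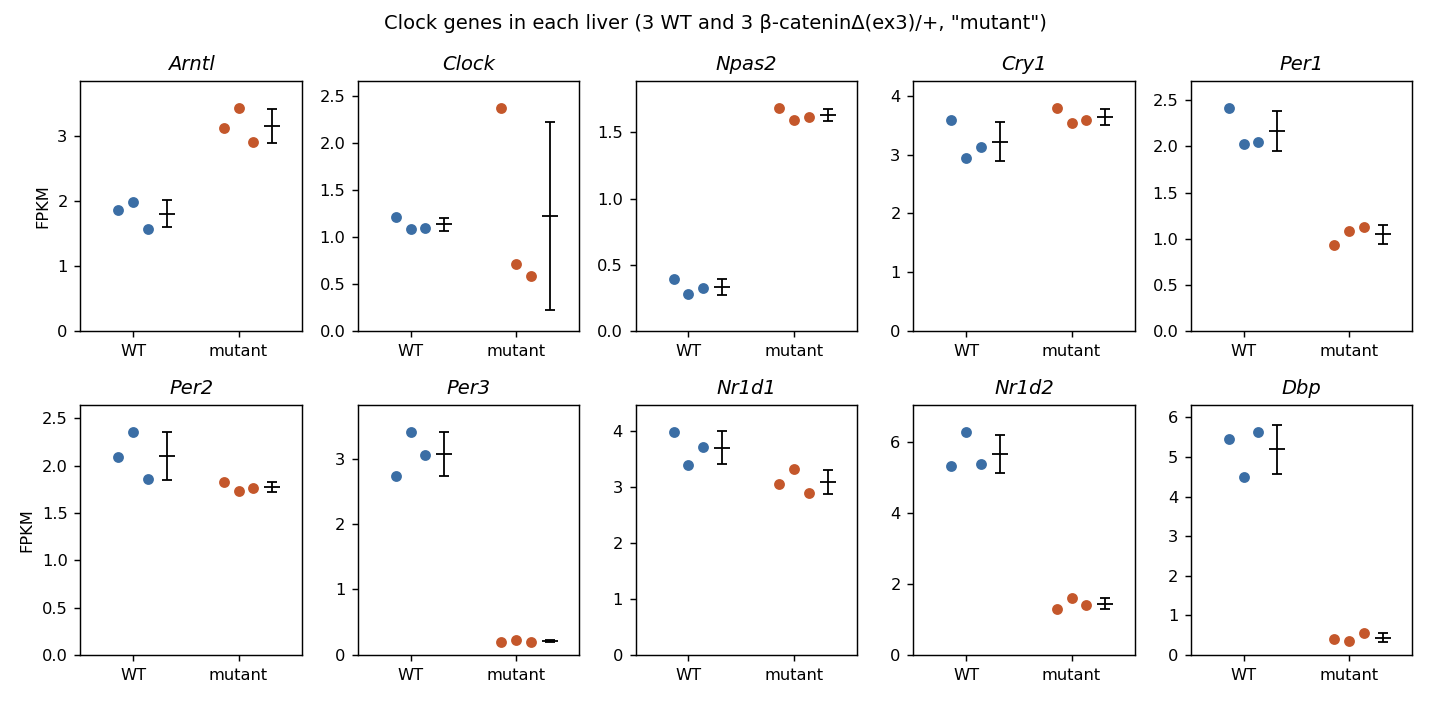
FPKM of the 10 clock genes in each liver, with 1 point per liver, WT in blue and β-cateninΔ(ex3)/+ (mutant) in orange, and the group mean ± SD (n = 3) in black. *Dbp*, *Per3* and *Nr1d2* sit far lower in every mutant liver, *Arntl* and *Npas2* sit higher in every mutant liver, and *Clock* is spread by the first mutant liver at 2.38 FPKM.

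*Arntl* (ENSMUSG00000055116, chromosome 7 from 113207465 to 113314126), which encodes BMAL1, the partner without which the activator does not form, measured 1.86, 1.98 and 1.57 FPKM in the WT livers and 3.12, 3.43 and 2.91 FPKM in the β-cateninΔ(ex3)/+ livers, each in the order of replicates 1 to 3. The groups did not overlap, and the means of 1.81 ± 0.212 and 3.15 ± 0.262 FPKM (SD, n = 3) differed by 1.75 times. The log2 fold change was 0.57 (SE 0.083, adjusted p = 0.00178 by limma), and it ranged from 0.41 to 0.77 across the alternatives.
*Npas2* (ENSMUSG00000026077, chromosome 1 from 39193731 to 39363236), whose product can take the place of CLOCK, had 0.396, 0.281 and 0.327 FPKM in WT and 1.69, 1.59 and 1.615 FPKM in β-cateninΔ(ex3)/+ livers. The groups lay far apart, at means of 0.334 ± 0.0577 and 1.63 ± 0.0482 FPKM (SD, n = 3), which is 4.88 times higher in β-cateninΔ(ex3)/+ livers. On the log2(FPKM + 1) scale, which understates changes of genes at so low a level, the log2 fold change was 0.98 (SE 0.061, adjusted p = 4.35e-05 by limma). It was thus just under 2-fold, and it passed both thresholds with a pseudocount of 0.1, at 2.00, and without WT replicate 1, at 1.01. The WT values rest on an estimated 29 to 41 fragments per liver.
*Clock* (ENSMUSG00000029238, chromosome 5 from 76209868 to 76304792) measured 1.22, 1.09 and 1.10 FPKM in WT and 2.38, 0.715 and 0.589 FPKM in β-cateninΔ(ex3)/+ livers. The first of the latter was above all WT livers and the others were below them. The log2 fold change of -0.028 (SE 0.29, adjusted p = 0.942 by limma) rests on that liver, and without it the value was -0.37 (limma adjusted p = 0.0125), while it was 0.12 and 0.17 without β-cateninΔ(ex3)/+ replicate 2 or 3.
*Cry1* (ENSMUSG00000020038, chromosome 10 from 85131700 to 85185064), a repressor whose gene answers to both E-boxes and ROR elements, had 3.58, 2.94 and 3.13 FPKM in WT and 3.79, 3.54 and 3.58 FPKM in β-cateninΔ(ex3)/+ livers. The groups overlapped at 3.54 to 3.58 FPKM, and the log2 fold change was 0.14 (SE 0.072, adjusted p = 0.1455 by limma), which turned to -0.0096 when libraries were scaled by median ratios and to -0.036 when they were quantile normalized.

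Within the *Per* family, the repressor genes that BMAL1 activates, the members differed in size of change. *Per1* (ENSMUSG00000020893, chromosome 11 from 69095217 to 69109960) measured 2.42, 2.03 and 2.05 FPKM in WT and 0.934, 1.09 and 1.13 FPKM in β-cateninΔ(ex3)/+ livers. Its means of 2.17 ± 0.217 and 1.05 ± 0.103 FPKM (SD, n = 3) were 2.06 times apart, and the log2 fold change on the FPKM + 1 scale was -0.63 (SE 0.076, adjusted p = 0.000806 by limma).
*Per2* (ENSMUSG00000055866, chromosome 1 from 91415982 to 91459324) measured 2.09, 2.36 and 1.86 FPKM in WT and 1.83, 1.73 and 1.76 FPKM in β-cateninΔ(ex3)/+ livers. The lowest WT liver and the highest β-cateninΔ(ex3)/+ liver were nearly level, and the log2 fold change was -0.16 (SE 0.075, adjusted p = 0.119 by limma), with adjusted p-values from 0.0202 to 0.266 across the alternatives.
*Per3* (ENSMUSG00000028957, chromosome 4 from 151003652 to 151044665) holds the D-boxes printed above in its promoter, while that of *Per2* was not searched. *Per3* had 2.74, 3.41 and 3.06 FPKM in WT and 0.202, 0.227 and 0.202 FPKM in β-cateninΔ(ex3)/+ livers. The mean fell 14.6 times, from 3.07 ± 0.339 to 0.210 ± 0.0146 FPKM (SD, n = 3), and the log2 fold change was -1.75 (SE 0.077, adjusted p = 1.01e-05 by limma). The β-cateninΔ(ex3)/+ values rest on an estimated 23 to 24 fragments per liver, against 405 to 504 in WT. Within a liver, the log2 ratio of *Per3* to *Per2* was 0.55 ± 0.17 in WT and -3.08 ± 0.13 in β-cateninΔ(ex3)/+ livers (SD, n = 3), without overlap. *Camta1* spans the *Per3* gene on the same strand but shares 0 exonic bases with it in GENCODE M21, and it was at 0.317 to 0.460 FPKM in the 6 livers.

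The REV-ERB genes, which close the second loop by repressing *Arntl*, also differed from each other in size of change. *Nr1d1* (ENSMUSG00000020889, chromosome 11 from 98767932 to 98775333) measured 3.98, 3.39 and 3.72 FPKM in WT and 3.04, 3.31 and 2.89 FPKM in β-cateninΔ(ex3)/+ livers. The groups were separated by less than the spread within either, and the log2 fold change was -0.20 (SE 0.072, adjusted p = 0.0554 by limma), with adjusted p-values from 0.00594 to 0.155 across the alternatives. The 3′ ends of *Nr1d1* and *Thra*, the thyroid hormone receptor gene on the opposite strand, share 263 exonic bases in GENCODE M21. In the deposited coordinates *Thra* ends at 98765111, short of *Nr1d1*, and the 2 genes do not overlap. *Thra* was lower in all β-cateninΔ(ex3)/+ livers, at a mean of 2.78 ± 0.248 against 4.24 ± 0.317 FPKM (SD, n = 3), with a log2 fold change of -0.47 (SE 0.077, adjusted p = 0.00276 by limma). The library kit marks strand, but whether the counting used it is not given in the sources used here, so reads of the shared bases may not be told apart.
*Nr1d2* (ENSMUSG00000021775, chromosome 14 from 18204054 to 18239127) measured 5.33, 6.30 and 5.39 FPKM in WT and 1.31, 1.605 and 1.42 FPKM in β-cateninΔ(ex3)/+ livers. It fell 3.93 times, from 5.67 ± 0.547 to 1.44 ± 0.150 FPKM (SD, n = 3), a log2 fold change of -1.45 (SE 0.083, adjusted p = 3.03e-05 by limma). Within a liver, the log2 ratio of *Nr1d2* to *Nr1d1* was 0.62 ± 0.25 in WT and -1.10 ± 0.10 in β-cateninΔ(ex3)/+ livers (SD, n = 3), so that *Nr1d2* was the more abundant REV-ERB transcript per length in every WT liver and the less abundant in every β-cateninΔ(ex3)/+ liver.

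*Dbp* (ENSMUSG00000059824, chromosome 7 from 45705088 to 45710203) encodes the D-box activator that is among the most strongly rhythmic transcripts of mouse liver. It had 5.45, 4.49 and 5.64 FPKM in WT and 0.404, 0.351 and 0.556 FPKM in β-cateninΔ(ex3)/+ livers. Every β-cateninΔ(ex3)/+ liver was far below every WT liver, and the means of 5.19 ± 0.616 and 0.437 ± 0.107 FPKM (SD, n = 3) were 11.9 times apart. The log2 fold change of -2.11 (SE 0.099, adjusted p = 1.31e-05 by limma) was the largest in size among the 10 genes on the log2(FPKM + 1) scale, and it ranged from -3.31 to -2.05 across the alternatives. *Per3* changed more than *Dbp* with a pseudocount of 0.1, at -3.35 against -3.31, and in the fold of mean FPKM, at 14.6 against 11.9. The β-cateninΔ(ex3)/+ values rest on an estimated 11 to 20 fragments per liver. The 3′ end of *Dbp* shares 539 exonic bases with *Sphk2* on the opposite strand, which was at 10.1 ± 0.496 and 10.5 ± 0.985 FPKM (SD, n = 3), a log2 fold change of 0.049 (limma adjusted p = 0.613). Whether the counting used strand is not given, so reads of these shared bases may not be told apart either. The part of *Sphk2* in the low *Dbp* values was not tested.
Among the 10969 genes whose mean FPKM was 1 or more, the profiles nearest to that of *Dbp* over the 6 livers, by the root-mean-square difference of their centred log2(FPKM + 1) values, were those of *Col5a1* (0.0685), *Enho* (0.0769) and *Apoa1* (0.0816). The 6 livers in 2 groups give little more than the size of the group difference to compare, and all 3 fell, with log2 fold changes of -2.05, -2.20 and -2.01 (limma adjusted p = 3.75e-06, 9.09e-06 and 1.06e-06).

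**Figure D2:**
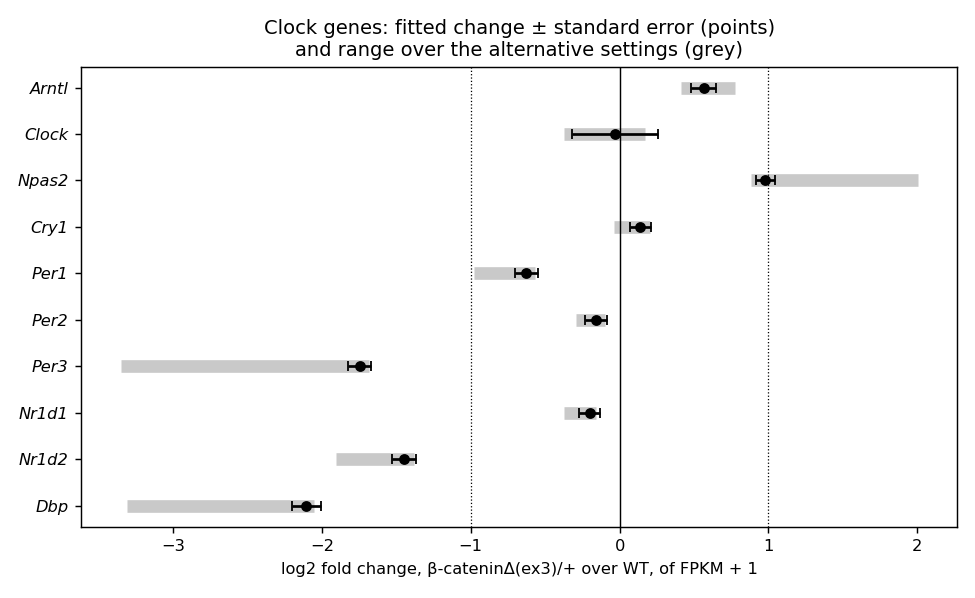
Log2 fold change of each clock gene, β-cateninΔ(ex3)/+ over WT, on the log2(FPKM + 1) scale, with points and bars for the limma value ± standard error, grey bands for the range over the alternatives and dotted lines at a 2-fold change. *Dbp*, *Per3* and *Nr1d2* lie beyond the lower dotted line in every setting, *Npas2* reaches across the upper one, and the bands of *Clock* and *Cry1* include 0.

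Ratios within a library do not depend on how the libraries were scaled against each other. For each of the 6 genes of the E-box and D-box arm, the ratio to *Arntl* in the same liver was lower in every β-cateninΔ(ex3)/+ liver, which the values above already fix, since each of the 6 was lower and *Arntl* higher without overlap. The ratios are therefore given for their size alone. *Dbp* was 2.93, 2.26 and 3.59 times *Arntl* in WT and 0.129, 0.102 and 0.191 times *Arntl* in β-cateninΔ(ex3)/+ replicates 1 to 3. The log2 ratio of *Per3* to *Arntl* moved from 0.77 ± 0.20 to -3.91 ± 0.052, that of *Nr1d2* from 1.65 ± 0.13 to -1.13 ± 0.11 and that of *Per1* from 0.27 ± 0.20 to -1.59 ± 0.20 (SD, n = 3). The smallest moves were those of *Nr1d1*, from 1.04 ± 0.24 to -0.030 ± 0.022, and *Per2*, from 0.22 ± 0.044 to -0.83 ± 0.14 (SD, n = 3), and most of these moves is the rise of *Arntl*, since the mean FPKM of *Nr1d1* and *Per2* in β-cateninΔ(ex3)/+ livers was 0.834 and 0.844 times that in WT. The log2 ratio of *Dbp* to *Npas2* differed most among the pairs computed, at 3.96 ± 0.17 in WT and -1.93 ± 0.34 in β-cateninΔ(ex3)/+ livers (SD, n = 3). *Npas2* was 0.257 to 0.324 times *Clock* in WT and 0.709 to 2.74 times *Clock* in β-cateninΔ(ex3)/+ livers. No test is given for these ratios, since the pairs were chosen with the members.

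**Figure D3:**
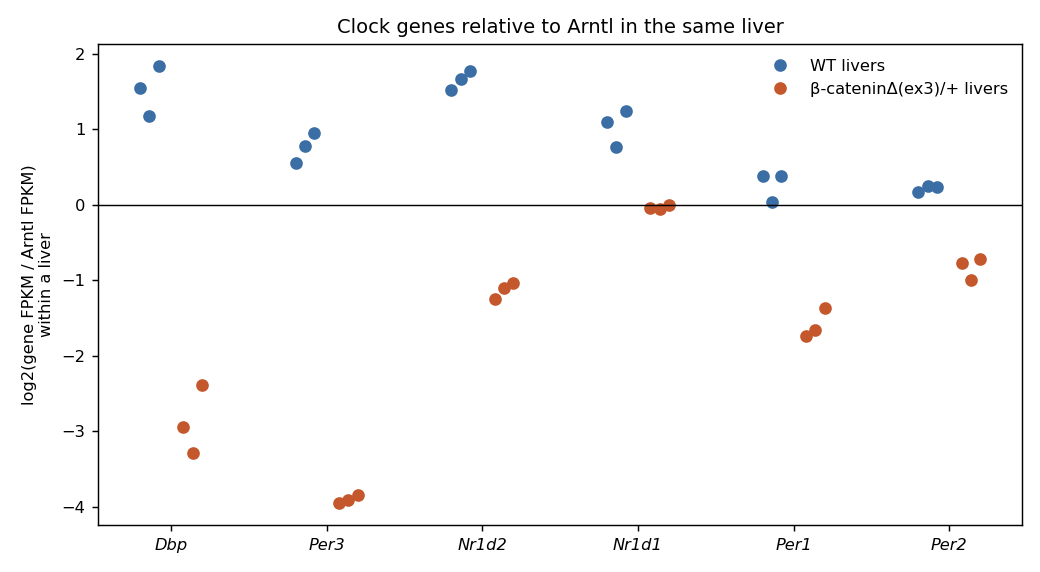
Log2 of the FPKM of 6 clock genes over that of *Arntl* in the same liver, 1 point per liver, WT in blue and β-cateninΔ(ex3)/+ in orange. All WT points are above 0, all β-cateninΔ(ex3)/+ points are below 0, and the groups stand nearest to each other for *Nr1d1* and *Per2*.

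Within a group the livers were close together in these genes. The median coefficient of variation over the 10 genes was 10.7% in WT and 7.64% in β-cateninΔ(ex3)/+ livers, beside 11.4% in WT and 11% in β-cateninΔ(ex3)/+ livers over the 4749 genes in the same range of mean FPKM. *Clock*, at 81.3%, and *Dbp*, at 24.4%, were the most spread in β-cateninΔ(ex3)/+ livers, and *Npas2*, at 17.2%, was the most spread in WT livers. With 1 sampling per animal and no time of killing in the sources used here, a different phase of the clock, a different amplitude and a different mean level cannot be told apart from each other or from genotype. Nor can they be told apart from the sex-linked and young-liver expression that also differed between the groups. *Arntl* and *Npas2* were high where *Dbp*, *Per3* and *Nr1d2* were low. *Nr1d1* and *Per2* were on the lower side too, without overlap, and passed the adjusted p only in some alternatives, median-ratio scaling (limma adjusted p = 0.00806 and 0.0228) and quantile normalization (limma adjusted p = 0.00594 and 0.0202) among them. *Cry1* and *Clock*, of the other arm, overlapped between the groups.

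Of 11 further transcription factors and repressors of the clock, 7 passed the expression filter, and 1 rose and 4 fell by the adjusted p, beside 37.4% and 19.6% of all genes tested, 1 of each at least 2-fold. The median log2 fold change of the 7 was -0.20. *Nfil3*, which opposes DBP at D-boxes and is itself repressed by REV-ERB, had 10.1, 10.1 and 10.9 FPKM in WT and 24.0, 20.7 and 22.9 FPKM in β-cateninΔ(ex3)/+ livers, a log2 fold change of 1.05 (SE 0.067, adjusted p = 4.88e-05 by limma). All 3 β-cateninΔ(ex3)/+ livers were above all WT livers, and the value was under 2-fold with median-ratio scaling, at 0.86, or with quantile normalization, at 0.77, and just under it without β-cateninΔ(ex3)/+ replicate 1.
*Tef*, a relative of *Dbp*, had 2.92, 2.74 and 4.83 FPKM in WT and 0.275, 1.27 and 1.09 FPKM in β-cateninΔ(ex3)/+ livers. Every β-cateninΔ(ex3)/+ liver was below every WT liver, with a wide spread in both groups (log2 fold change -1.27, SE 0.27, adjusted p = 0.00889 by limma). *Hlf*, the third of these PAR bZIP factors, went only from 4.42 ± 0.214 to 3.73 ± 0.0566 FPKM (SD, n = 3), a log2 fold change of -0.20 (limma adjusted p = 0.02004).
*Cry2*, the paralogue of *Cry1*, fell 2.02 times in mean FPKM, from 5.24 ± 0.233 to 2.60 ± 0.252 FPKM (SD, n = 3; log2 fold change -0.80, limma adjusted p = 0.000192). *Bhlhe40*, an E-box repressor, fell as well (log2 fold change -0.70, limma adjusted p = 5.87e-05). *Rora* and *Timeless* had log2 fold changes of -0.062 and -0.16 and did not pass. *Ciart* and *Arntl2* were under the filter, at means of 0.3201 and 0.3696 FPKM in WT and 0.155 and 0.0932 FPKM in β-cateninΔ(ex3)/+ livers, *Bhlhe41* was at most 0.109 FPKM, and *Rorb* was listed at 0 in each liver.

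Of 14 kinases, ubiquitin ligases and cofactors that act on clock proteins, all 14 passed the filter, and 4 rose and 3 fell by the adjusted p, so that 7 of 14 passed it, beside 57.0% of all genes tested. Their median log2 fold change was 0.15, beside 0.14 over all genes. Only *Usp2*, a deubiquitinase that is itself a rhythmic transcript of liver, passed both thresholds, with 0.638, 0.229 and 0.163 FPKM in WT and 3.91, 3.04 and 3.94 FPKM in β-cateninΔ(ex3)/+ livers (log2 fold change 1.80, SE 0.16, adjusted p = 0.000183 by limma). *Usp2* is activated by BMAL1 in the same arm as *Dbp*, and it went in the opposite direction in all livers. *Ncor1*, the corepressor that REV-ERB recruits, rose with a log2 fold change of 0.55 (limma adjusted p = 0.00207). *Fbxl21* and *Btrc*, ligase subunits for CRY and PER, fell, with -0.63 and -0.54 (limma adjusted p = 0.000597 and 0.000610), and *Btrc* passed 2-fold as well with a pseudocount of 0.1, at -1.03. *Csnk1d* and *Csnk1e*, the kinases that phosphorylate PER, had 0.27 and -0.26 (limma adjusted p = 0.00416 and 0.0177), and the first turned to -0.0046 after quantile normalization. *Fbxw11* was nearest to 0, at -0.069 (limma adjusted p = 0.574), and turned to 0.020 without β-cateninΔ(ex3)/+ replicate 3.

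**Figure D4:**
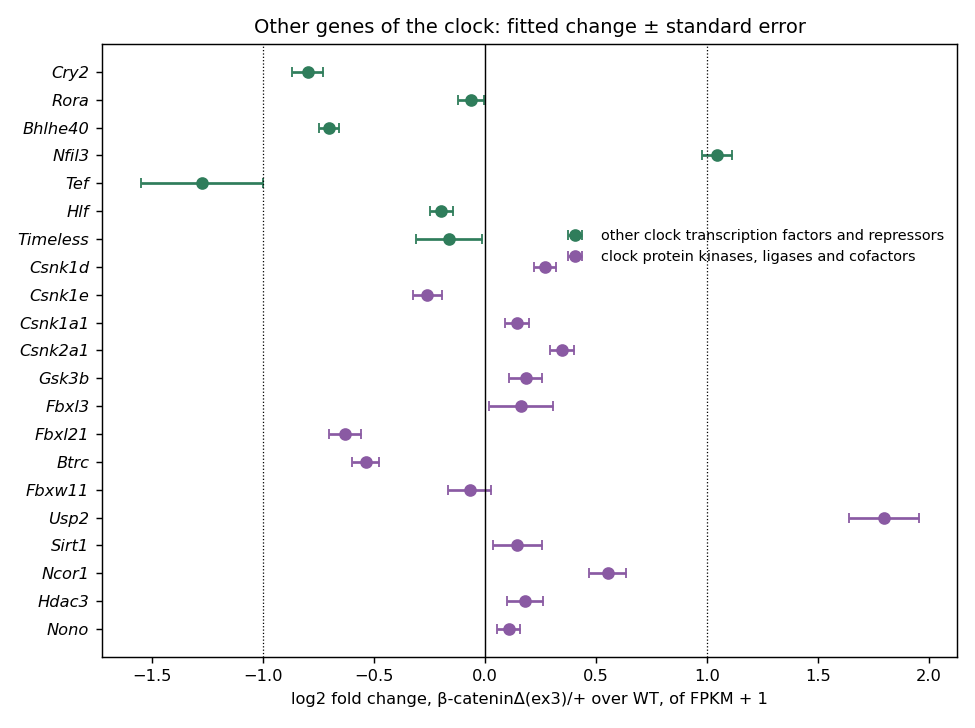
Log2 fold change ± standard error, β-cateninΔ(ex3)/+ over WT on the log2(FPKM + 1) scale, of the 7 further clock transcription factors and repressors tested (green) and the 14 clock kinases, ligases and cofactors (purple), with dotted lines at a 2-fold change. *Nfil3* and *Usp2* lie past the upper line and *Tef* past the lower one.

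Of 18 genes known as clock-controlled outputs of liver, 17 passed the filter, 8 rose and 7 fell by the adjusted p, and 6 of the former and 3 of the latter did so at least 2-fold. Of all genes tested, 57.0% passed the adjusted p and 12.7% passed both thresholds. The median log2 fold change of the 17 was 0.037. *Cyp7a1*, the rate-limiting enzyme of bile acid synthesis and a target of DBP, had 2.99, 3.05 and 3.15 FPKM in WT and 19.3, 20.4 and 20.8 FPKM in β-cateninΔ(ex3)/+ livers (log2 fold change 2.38, limma adjusted p = 3.74e-07), while *Dbp* itself was low there. *Rgs16*, a regulator of G protein signalling that follows feeding time, fell 11.2 times, from 26.5 ± 0.581 to 2.37 ± 0.568 FPKM (SD, n = 3; log2 fold change -3.04, limma adjusted p = 5.86e-06). *Tsku* rose to 73.6, 85.1 and 73.2 FPKM from 3.43, 0.245 and 0.245 FPKM (log2 fold change 5.36, limma adjusted p = 0.000258), and *Gys2*, liver glycogen synthase, fell from 80.8 ± 2.07 to 31.1 ± 1.21 FPKM (SD, n = 3; log2 fold change -1.35, limma adjusted p = 2.52e-06). *Nampt* and *Wee1*, BMAL1 targets, had log2 fold changes of -0.14 and -0.16 (limma adjusted p = 0.0489 and 0.165). *Tspan4* was nearest to 0, at 0.037, and turned to -0.14 and -0.25 under the median-ratio and quantile scalings. It also turned to -0.089 without WT replicate 2 and to -0.039 without β-cateninΔ(ex3)/+ replicate 2.

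The signals that set the liver clock from outside, feeding, glucocorticoids and body temperature, have target genes of their own, which were read against the shares of all genes tested. Of 13 fasting and feeding genes 4 rose and 7 fell by the adjusted p, 3 and 5 of them at least 2-fold, with a median log2 fold change of -0.53. Of all genes tested, 37.4% rose and 19.6% fell by the adjusted p, and 8.17% and 4.52% did so at least 2-fold. Those that fell most were *Fgf21*, a hormone of fasting, from 41.3, 42.7 and 43.4 FPKM in WT to 0.110, 0.345 and 0 FPKM, and *G6pc*, the last enzyme of glucose production, with a log2 fold change of -2.05 (limma adjusted p = 2.31e-07). Those that rose most were *Scd1* and *Fasn* of fatty acid synthesis, with 7.26 and 3.90 (limma adjusted p = 3.93e-09 and 1.09e-06), and *Ppargc1a* was nearest to 0, at -0.099.
All 10 glucocorticoid-responsive genes passed the adjusted p, 6 higher and 4 lower, beside 57.0% of all genes tested, and 3 and 4 of them were at least 2-fold, beside 12.7% in either direction. Their median log2 fold change was 0.64. *Tat*, a liver enzyme of tyrosine breakdown, rose from 48.9 ± 1.73 to 334.4 ± 4.87 FPKM (SD, n = 3; limma adjusted p = 7.33e-08), while *Mt1*, a metallothionein, fell most, with a log2 fold change of -2.65 (limma adjusted p = 4.81e-06). *Fkbp5* and *Sgk1* fell with log2 fold changes of -1.38 and -1.38 (limma adjusted p = 4.19e-06 and 4.82e-06), and *Cebpd* was nearest to 0, at 0.58 (limma adjusted p = 0.00568). *Zbtb16* and *Tsc22d3* rose with log2 fold changes of 1.63 and 1.41 (limma adjusted p = 2.085e-05 and 2.73e-05). *Per1*, which glucocorticoids also induce, fell, as did 4 of these 10 genes, while the other 6 rose.
Of 8 temperature-responsive genes 5 rose and 2 fell by the adjusted p, beside the 37.4% and 19.6% of all genes, with a median log2 fold change of 0.99. The cold-induced RNA-binding genes *Cirbp* and *Rbm3* were the 2 that fell, with log2 fold changes of -1.37 and -1.13 (limma adjusted p = 4.52e-05 and 0.00139), and the heat shock genes *Hspa1b* and *Hsph1* rose with 2.83 and 1.75 (limma adjusted p = 3.57e-06 and 8.52e-06). *Hspa1b* has a near-identical neighbour, *Hspa1a*, with a log2 fold change of 2.04 (limma adjusted p = 4.35e-05), and fragments can be split between them. *Hspa8* was nearest to 0, at 0.17 (limma adjusted p = 0.293), and turned to -0.021 and -0.017 under the median-ratio and quantile scalings. The part of feeding state, glucocorticoids and temperature in the values of the clock genes was not tested.

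**Figure D5:**
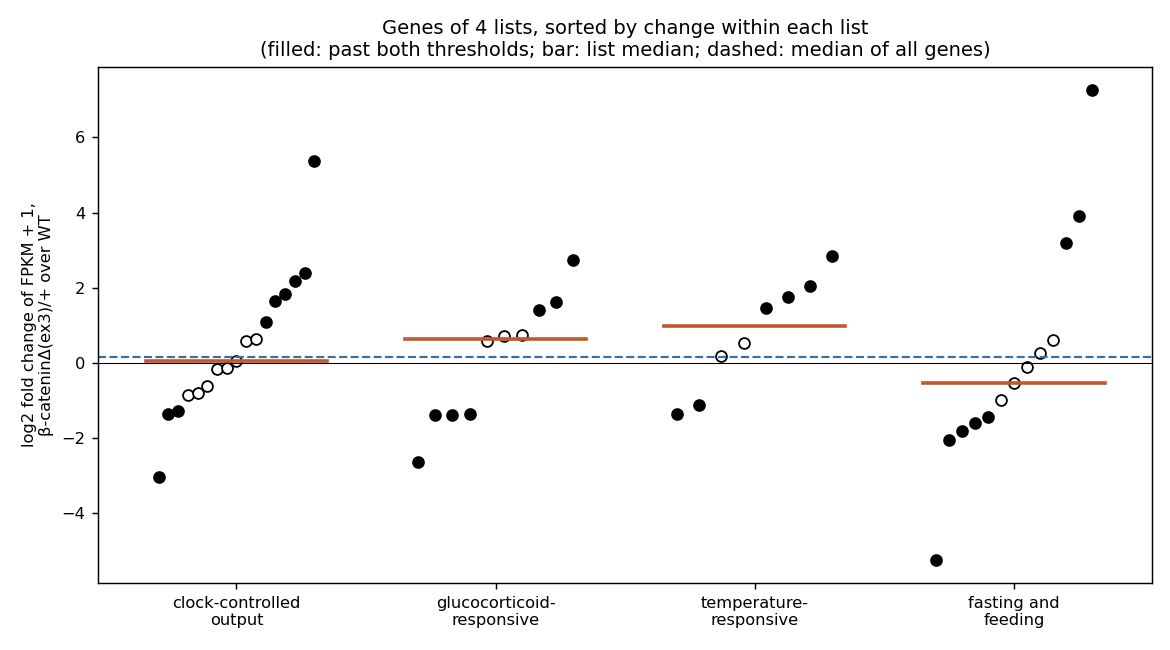
Log2 fold change, β-cateninΔ(ex3)/+ over WT on the log2(FPKM + 1) scale, of the genes tested in 4 lists, sorted within each list, with filled points past both thresholds, an orange bar at the list's median and a dashed line at the median of all genes tested, 0.14. Each list holds genes far above and far below 0, with the widest range, from -5.25 to 7.26, among the fasting and feeding genes.

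Markers of other liver cells moved with the groups too. The counts below are by the adjusted p, by which 37.4% of all genes tested rose and 19.6% fell. The summed FPKM of 6 Kupffer and myeloid markers was 212.5 to 218.2 in WT and 498.8 to 515.4 in β-cateninΔ(ex3)/+ livers, with 5 of 6 higher by the adjusted p. All 6 stellate markers fell (82.7 to 85.3 against 24.2 to 26.8 FPKM summed), as did all 6 endothelial markers (68.6 to 69.9 against 49.3 to 50.5 FPKM) and the 4 erythroid markers tested (660.3 to 677.3 against 245.4 to 268.7 FPKM, with *Epb42* at 0 in at least 1 liver). Of 5 cholangiocyte markers 4 were tested and 2 fell (39.6 to 43.1 against 18.5 to 19.3 FPKM), and of 6 lymphocyte markers 5 were tested, 1 rose and 3 fell (22.2 to 25.8 against 11.8 to 13.2 FPKM). All 5 proliferation markers rose (9.31 to 10.3 against 16.6 to 17.6 FPKM). In bulk RNA, fewer cells of a type and less RNA per cell cannot be told apart, and the part of these cells in the clock values was not tested. Of 13 liver targets of Wnt signalling 10 rose and 2 fell by the adjusted p, beside the same 37.4% and 19.6% of all genes tested. FPKM per gene do not show the loss of an exon, so the deletion itself was not checked.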

How the data were processed

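The deposited values are FPKM per gene and liver that the authors made from paired-end, poly(A)-selected libraries; the submitters' processing notes name cutadapt 1.9, HISAT2 2.0.4 and StringTie 1.3.4d, and DESeq2 and edgeR without a version. The genome build is not given in the sources used here. Of 31950 genes, 28911 have the start and end of GENCODE M21 (GRCm38), as do all 10 clock genes. The columns were matched to livers by the sample descriptions, and 0 columns were left unused.

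FPKM are not counts, so the 13243 genes averaging 0.5 FPKM or more were tested on the log2(FPKM + 1) scale by limma 3.58.1 under R 4.3.3, its eBayes step allowing for an intensity trend, with Benjamini-Hochberg adjustment over all of them. The study's thresholds, an adjusted p under 0.05 and at least 2-fold, were used. Fold differences of means are from FPKM without a pseudocount. Fragments per gene are FPKM times the longest annotated transcript and the estimated depth. Of the low values of single-exon genes, 21.7% to 29.3% lay on whole-fragment steps, against 4% by chance, so the fragments are approximate. The best-fitting depth of each β-cateninΔ(ex3)/+ library was divided by 2, because even steps made up 71.1% to 80.4% of those matched. In WT libraries they made up 30.4% to 38.4%, and no division was made. Nothing says how the animals relate, so p-values measure only the spread between these livers. Python 3.11.15, pandas 2.3.3 and numpy 2.4.6 were used for the rest.

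The clock genes and lists were chosen with earlier results of these data known, and 1 list gene is not reported here. Named genes were the clock genes, for the lists of clock factors, outputs and cues some of the members with the largest changes past both thresholds and the one nearest to 0, overlapping genes, and the 3 profiles nearest to the gene with the largest change; other list members were named for their role after their values had been seen. Results were recomputed with quantile normalization or with median-ratio scaling, with a pseudocount of 0.1, with the filter dropped or raised to 1 FPKM, with no eBayes trend, with other thresholds, without each of the 6 livers, and with a block for the replicate number.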

Additional observations from a re-analysis of the deposited data

How the results depend on the processing

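Of 129 comparisons of the 10 clock genes with an alternative, 123 kept their direction and their side of the thresholds. *Dbp*, *Per3* and *Nr1d2* were past both thresholds in each of 13 alternatives that kept the thresholds. *Npas2* passed both with a pseudocount of 0.1 (2.00) and without WT replicate 1; it could not be tested at a mean FPKM of at least 1, being below it. *Cry1* reversed to -0.0096 under median-ratio scaling and to -0.036 under quantile normalization, settings that shifted the median over all genes by -0.14 and -0.16 (log2). *Clock* reversed to 0.12 and 0.17 without β-cateninΔ(ex3)/+ replicate 2 or 3. The log2 fold change of *Npas2* ranged from 0.95 to 1.01 and that of *Clock* from -0.37 to 0.17 when livers were left out singly. The cause was not tested.
At an adjusted p under 0.05 at any fold change, 6 of the clock genes were called, in place of 3, and 7551 of all genes in place of 1680. Over all genes 2705 were called with a pseudocount of 0.1, and 759 at an absolute log2 fold change of at least 1.5, where 2 clock genes, *Dbp* and *Per3*, were left. The share of higher genes among those called was 64.4%, against 53.1% (median-ratio scaling) and 49.5% (quantile normalization).
Livers with the same replicate number were treated as unpaired. Their deviations from the group means correlated at 0.0268, 0.0213 and -0.0054, which cannot show how the animals relate. With the replicate block, 1673 genes and 3 clock genes were called. FPKM give no counts, so the depth behind *Dbp* and *Per3* in β-cateninΔ(ex3)/+ livers and *Npas2* in WT livers is an estimate.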
